A study of Spermophilus dauricus with 30 samples.

Results

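Entry into hibernation was studied in the hind-limb muscle of Daurian ground squirrels (*Spermophilus dauricus*) by setting hibernating animals against animals sampled before hibernation, with the reads of both muscles combined. The hibernation group (HIB) and the pre-hibernation group (PRE) each had 3 SOL libraries, SOL standing by common use for the soleus, and 3 EDL libraries, EDL standing for the extensor digitorum longus, so 12 of the 30 libraries of the series took part. Within a state the SOL and the EDL counts of the same number were added, which gave 3 HIB sums and 3 PRE sums. The other libraries came from summer active animals (SA), animals in an arousal between torpor bouts (IBA) and animals after hibernation (POST). All 30 libraries carry the genotype label WT, and all of them, PRE and SA included, carry the same treatment label, so the state was read from the titles and descriptions. Age, sex, body temperature, the length of torpor and the number of animals are given in none of the sources used here.

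A ground squirrel in torpor lets its metabolic rate and body temperature drop for days at a time, and short arousals at normal body temperature interrupt the winter. Transcription is known to run slowly at low body temperature, and skeletal muscle of hibernators is known for losing little mass through months of disuse and fasting while it burns mostly fat. The soleus is a slow, postural muscle and the EDL a fast one.

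The table names its features by number, or by a number after a text prefix as in Novel00012, and the files do not pair these identifiers with gene names. Muscle markers, markers of other cell types and pathway lists could therefore not be looked up, and the labelled tissue was not checked against its markers. No identifier could be given a function. Of the identifiers that rose and of those that fell, 2 each are named, and the others are described by their number, direction, size and level. In bulk muscle RNA, fewer cells of a type and less RNA per cell cannot be told apart.

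The HIB libraries held 31442362 to 38288048 counts and the PRE libraries 33270145 to 41869560. The sums held 65010583 to 72598231 counts in HIB and 70248929 to 75139705 in PRE. SOL made up 45.5% to 49.3% of a HIB sum and 44.3% to 51.9% of a PRE sum. The first principal component of the 6 sums carried 35.8% of their variance and placed the HIB sums at 36.0 to 44.8 and the PRE sums at -46.4 to -28.9. PRE replicate 3 stood at -56.6 on the second component (22.2% of the variance), while the other 5 sums lay between -28.7 and 33.8. Among 13669 identifiers that averaged 1 CPM or more (counts scaled to library size, with TMM factors), the median coefficient of variation was 0.129 between HIB sums and 0.146 between PRE sums.

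Few identifiers passed the threshold between HIB and PRE in the main fit, and those that did moved in both directions. Missing the threshold does not show that an identifier was unchanged. Of 17306 identifiers with enough counts, 121 had an adjusted p under 0.05 by the quasi-likelihood test of edgeR, here said to be called, which is 0.699% of those tested. Higher in HIB were 53 (0.306%) and lower in HIB were 68 (0.393%). The higher identifiers had a median log2 fold change of 1.21, with a range of 0.62 to 3.81, and the lower ones a median of -1.12, with a range of -4.69 to -0.60. The change exceeded 2-fold in 36 of the 53 and 44 of the 68, and 4-fold in 15 and 13. No called identifier changed by less than 1.5-fold. Over all tested identifiers the median log2 fold change was 0.005 and its median size 0.30, and 50.4% of the values were positive.

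The call count depended on single sums. Leaving out HIB replicate 1, 2 or 3 gave 2, 12 or 16 calls, and leaving out PRE replicate 1, 2 or 3 gave 11, 1 or 21. Sums of other states, which share the estimate of spread, moved it too: to 263 and 588 without POST replicates 2 and 3, to 45 without SA replicate 3, and to 65 and 75 without IBA replicates 1 and 2. Scaled by library totals alone, 18 were called, of which 33.3% were higher, against 43.8% with TMM. That scaling moved the median log2 fold change of all identifiers to 0.129, so small changes are read relative to the TMM scale. The TMM factors were 1.007 to 1.019 in the HIB sums and 0.901 to 0.962 in the PRE sums, so the scaling itself differed between the states without overlap.

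**Figure D1:**
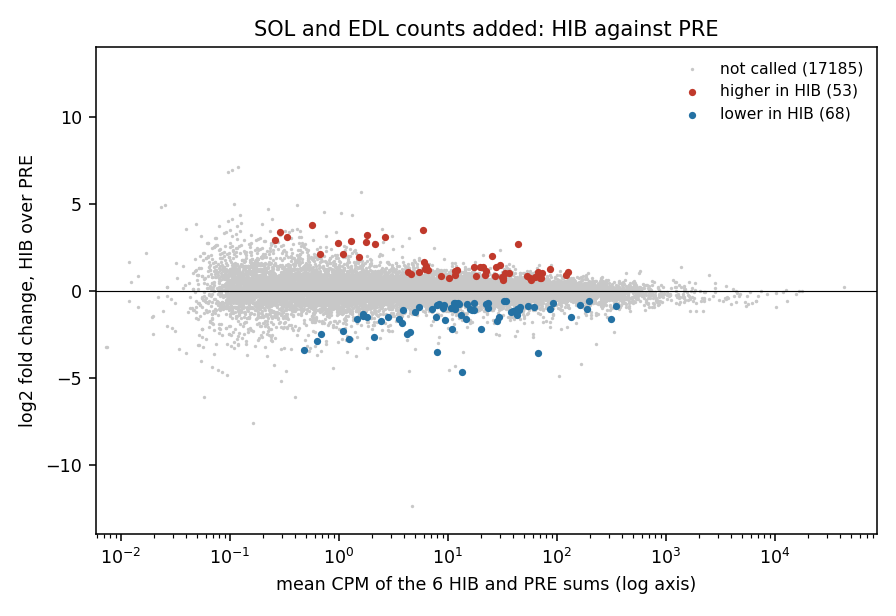
Each point is 1 of 17306 identifiers, with the mean CPM of the 6 HIB and PRE sums on a log axis and the log2 fold change of HIB over PRE. The 53 identifiers called higher and the 68 called lower lie at most levels, and many uncalled identifiers of low level have folds as large as theirs, while the uncalled point at the bottom is Novel00360, with 0 counts in all HIB libraries, so that its fitted fold is no bound.

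The HIB and PRE values of the called identifiers were apart in every case. For all 121, the 3 HIB sums did not overlap the 3 PRE sums, a condition met by 29.9% of all tested identifiers, and the test itself favours such identifiers. Between the nearest pair of sums, the lowest HIB sum was a median 1.83 times the highest PRE sum for the higher identifiers, with a range of 1.28 to 7.23. For the lower identifiers, the lowest PRE sum was a median 1.76 times the highest HIB sum, with a range of 1.26 to 7.42. The gap exceeded 2-fold for 21 of the 53 and 28 of the 68.

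Together these transcripts were a small part of the RNA. The 53 higher identifiers took 0.197%, 0.193% and 0.183% of the counts in the HIB sums, against 0.0863%, 0.0860% and 0.0827% in the PRE sums. The 68 lower identifiers took 0.154%, 0.160% and 0.170% in the HIB sums, against 0.316%, 0.323% and 0.317% in the PRE sums. The 3 sums of a state lay close to each other in both sets, which were chosen on these same values. The 50 most abundant identifiers of a sum held 28.5% to 31.6% of the counts in HIB and 31.2% to 32.8% in PRE, and these ranges overlap.

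Calls were found at most levels of abundance. Of 1607 identifiers averaging 100 CPM or more in the 6 sums, 2 were called higher and 6 lower (0.498%). Between 10 and 50 CPM, 20 were higher and 30 lower of 5328 (0.938%), and below 1 CPM 6 were higher and 3 lower of 3637 (0.247%). At low counts only large changes can pass the test, so the sizes of the called changes are not comparable across levels. All 9 called identifiers below 1 CPM changed more than 2-fold, with a median size of 2.92 on the log2 scale. Of the 14 called between 50 and 100 CPM, 5 changed more than 2-fold, with a median size of 0.84.

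Identifiers with the text prefix, whose meaning is not given in the sources used here, were called at 1.88% (18 of 955 tested), and numeric identifiers at 0.630% (103 of 16351). Of the 18, 7 were higher and 11 lower in HIB, and 15 of them changed more than 2-fold. The median size of the log2 fold change was 0.52 over all tested prefixed identifiers and 0.30 over all numeric ones, called or not.

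The strictest calls were mostly falls. At an adjusted p under 0.01 in edgeR's test there were 6 identifiers, 1 higher and 5 lower. The higher one had a log2 fold change of 1.24 at a mean of 86.4 CPM. The 5 lower ones had changes of -3.52 to -0.997 at means of 3.58 to 28.0 CPM, and 3 of them carried the text prefix. At the other edge, the threshold lay between adjusted p values of 0.0498 and 0.0503. Another 678 identifiers had an adjusted p from 0.05 to 0.1, of which 317 were higher and 361 lower. At an unadjusted p under 0.05 there were 3390 identifiers (19.6%), 1620 higher and 1770 lower. With DESeq2's Wald test on the same sums 1219 were called, 576 higher and 643 lower, and they included all 121.

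Each change was then followed into the separate muscles. All 121 called identifiers were tested in both SOL and EDL, and all 121 had the direction of the sums in both. The reads of each muscle are part of the sums that chose these identifiers, so this is a description of where the change lay and not a second result. Among the 16007 identifiers tested in both muscles and in the sums, 78.0% had equal signs in SOL and EDL. The HIB libraries did not overlap the PRE libraries in the same direction in SOL and in EDL for 50 identifiers of the 53 and 65 of the 68, while 12.8% of the 16007 met this condition.

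The sizes of the changes were set side by side for the muscles. The higher identifiers had a median log2 fold change of 1.07 in SOL, ranging from 0.51 to 3.47, and of 1.27 in EDL, ranging from 0.70 to 4.26. The lower identifiers had a median of -1.10 in SOL, ranging from -5.41 to -0.51, and of -1.16 in EDL, ranging from -4.05 to -0.23. The change was larger in EDL for 37 identifiers of the 53 and 32 of the 68. A gap of more than 1 on the log2 scale between the muscles was seen for 4 higher and 3 lower identifiers.

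The calls were also counted in each muscle alone. In SOL 6 of 16443 identifiers were called (0.0365%) and in EDL 119 of 16299 (0.73%). All 6 of SOL and 54 of EDL were among the 121, and 3 were called in SOL, in EDL and in the sums. Of the 121, 64 were called in neither muscle. At an unadjusted p under 0.05 in edgeR's test, 46 of the 53 higher identifiers passed in SOL and 53 in EDL. Of the 68 lower identifiers 68 passed in SOL and 67 in EDL. Over all identifiers tested in a muscle, 12.8% passed in SOL and 19.5% in EDL. The reads of each muscle entered the choice of the 121, which favours such passes. The other 65 identifiers called in EDL all had the same sign in the sums, where their adjusted p had a median of 0.068 and reached 0.238. In SOL, leaving out any HIB replicate, or PRE replicate 2 or 3, gave 0 calls by edgeR with 1465 to 1996 at an unadjusted p under 0.05, leaving out PRE replicate 1 gave 2, and leaving out POST replicate 1 gave 12. Leaving out HIB replicate 1, 2 or 3 gave 4, 10 or 41 calls in EDL, and leaving out PRE replicate 1, 2 or 3 gave 8, 2 or 28. With only the 6 HIB and PRE libraries of a muscle in the fit, 95 were called in SOL and 117 in EDL. The gap in calls between the muscles thus changed with the libraries in the fit. With DESeq2's Wald test on all libraries of a muscle, 369 were called in SOL and 1072 in EDL. What the gap follows was not tested.

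**Figure D2:**
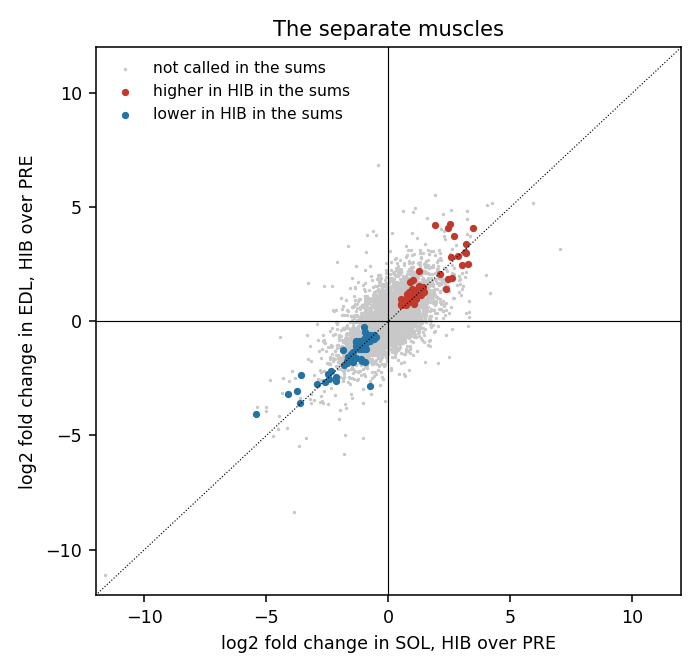
Log2 fold changes of HIB over PRE in EDL against those in SOL for 16007 identifiers tested in both muscles and in the sums, with the dotted line marking equal change. The 53 higher identifiers lie in the upper right and the 68 lower ones in the lower left.

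Adding the muscles could hide opposite changes, and the difference between the muscles was tested directly over all 30 libraries. Of 16946 identifiers, edgeR called 0 (0%) and DESeq2 called 1, with 220 (1.30%) at an unadjusted p under 0.05 in edgeR. With the SOL and EDL libraries of a number paired, edgeR again called 0, with 648 (3.82%) at an unadjusted p under 0.05. The smallest edgeR adjusted p was 0.0778 with pairing. Among the 121, 0 of the higher and 2 of the lower identifiers had an unadjusted p under 0.05 for the difference, and 2 and 3 did with pairing. Identifiers with an unadjusted p under 0.05 in both muscles numbered 1211 with one direction and 2 with opposite directions. The SOL and EDL libraries of a number had correlated deviations, so the muscles are not independent and equal directions are favoured. A missed threshold does not show that the muscles responded alike.

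The called identifiers were also set against the muscle differences of summer active animals, whose libraries are in neither group. Of the 53 higher identifiers, 6 stood more than 2-fold higher in SOL than in EDL in SA, on means of CPM + 0.5, and 1 stood more than 2-fold higher in EDL. Of the 68 lower ones, 0 were higher in SOL by that measure and 3 were higher in EDL. Among the 16007 identifiers there were 914 and 376. In either direction this comes to 13.2% of the higher set and 4.41% of the lower set, against 8.06% of the 16007.

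The levels of both sets were followed through the 5 states of the year. Taken as the mean log2(CPM + 0.5) over the 53 higher identifiers, the 3 sums stood at 3.27 to 3.40 in SA, 2.83 to 2.86 in PRE, 4.01 to 4.09 in HIB, 3.55 to 3.65 in IBA and 3.19 to 3.54 in POST. Over the 68 lower identifiers they stood at 4.03 to 4.09 in SA, 4.21 to 4.32 in PRE, 2.95 to 3.10 in HIB, 3.69 to 3.90 in IBA and 3.72 to 4.04 in POST. The HIB and PRE levels are the ones that chose the sets, and the SA, IBA and POST sums entered that choice through the shared estimate of spread. In all of SA, IBA and POST both sets lay between their HIB and PRE levels without overlap, which choosing identifiers by HIB and PRE favours.

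**Figure D3:**
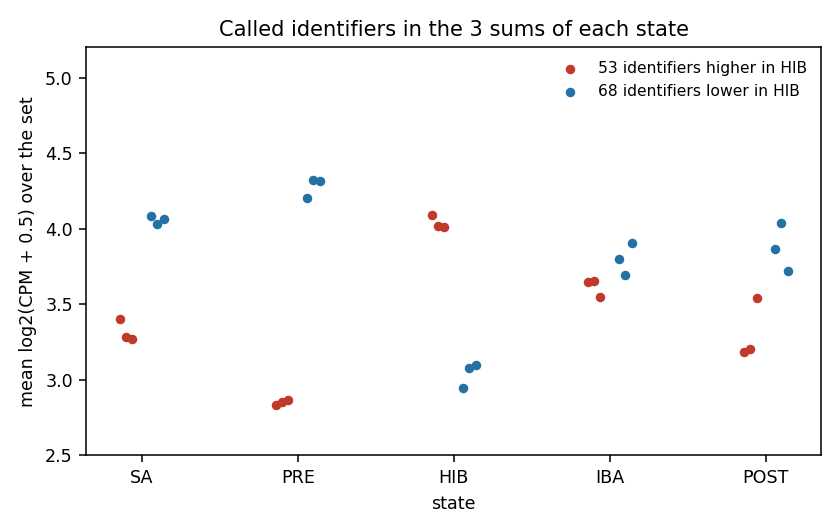
Mean log2(CPM + 0.5) over the 53 identifiers higher and the 68 identifiers lower in HIB, with 1 point for each of the 3 sums of a state. The SA, IBA and POST points of each set lie between its HIB points and its PRE points, which are the levels that chose the sets.

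For single identifiers the position of the other states varied. Among the 53 higher identifiers the IBA mean lay nearer to the HIB mean for 40 and nearer to the PRE mean for 13. Among the 68 lower ones it lay nearer to HIB for 23 and nearer to PRE for 45. The POST mean lay nearer to PRE for 35 higher and 49 lower identifiers, and the SA mean for 31 and 56. Nearness was not counted over all identifiers, so these counts have no share to be set against. HIB had the highest mean of the 5 states for 40 of the 53 higher identifiers, against 19.3% of all tested. SA had it for 7, against 27.4% of all, and IBA for 6, against 13.7% of all. HIB had the lowest mean for 64 of the 68 lower identifiers, against 21.2% of all. PRE was the lowest of the 5 for 42 of the higher identifiers, against 18.8% of all, and the highest for 48 of the lower ones, against 20.0% of all. Choosing on the HIB and PRE values favours such extremes.

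In comparisons between other states the fold changes rest on no HIB or PRE library, although the estimate of spread behind the calls is shared by all 5 states. In IBA against SA, 37 of the 53 higher identifiers had a positive log2 fold change, with a median of 0.35, and 20 of the 68 lower ones, with a median of -0.19. Over all tested identifiers 49.7% were positive and the median was -0.003. Of the 53, 3 were called higher in IBA and 0 lower, and of the 68, 2 were called lower and 0 higher, with 0.809% of all identifiers called. In POST against SA the medians were 0.08 for the higher set and -0.10 for the lower set, with 27 of 53 and 29 of 68 positive, against 52.1% of all. There 9 of the 53 were called higher and 14 lower, and 2 of the 68 were called higher and 7 lower, with 10.3% of all identifiers called.

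IBA against HIB shares the HIB libraries with the comparison that chose the sets, and its values are given beside it. Of the higher set 9 of 53 were above HIB in IBA, at a median log2 fold change of -0.36, and of the lower set 66 of 68, at a median of 0.61. Over all tested identifiers 51.5% were above HIB in IBA, at a median of 0.012. Only 3 of the 17306 identifiers were called (0.0173%), all higher in IBA and all among the 68. PRE against SA shares the PRE libraries, and 8 of the 53 and 52 of the 68 were above SA in PRE, with medians of -0.58 and 0.26. Over all tested identifiers 51.7% were above SA in PRE, at a median of 0.019. There 1 of the 53 was called higher and 15 lower, and 5 of the 68 were called higher and 1 lower, with 3.43% of all identifiers called.

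A set of 7 identifiers was near silent in PRE and present in HIB. They had 0 to 3 counts in each PRE sum and 10 to 38 counts in each HIB sum, and 0 identifiers showed the reverse pattern by the same limits. More identifiers had a count in the HIB sums in general, 19643 to 19697 in each, against 19280 to 19374 in each PRE sum. None of the 7 was called, with edgeR adjusted p from 0.0591 to 0.172 and an unadjusted p under 0.05 for all 7. Their PRE counts lay below the filter, so they were tested through the counts of HIB or other states. Only 2 of the 7 were tested in both muscles, so the others were not followed into both. The limits on the counts favour small p-values, so these are no separate support. This grouping was made after the values were seen.

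The rule for named identifiers asked for a call in the sums, an average of 5 CPM or more, no overlap of the sums and one direction in both muscles. The rule was met by 89 identifiers, 38 higher and 51 lower, and in 37 and 49 of these the libraries of both single muscles did not overlap either. The change exceeded 2-fold in 22 of the 38 and 27 of the 51. The first 2 rises and the first 2 falls by fold change are described next, and the others had log2 fold changes of 0.62 to 2.02 and of -3.52 to -0.60.

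Novel00012 had the largest rise of the 38, while higher identifiers with a lower level reached 3.81. Its sums stood at 12.2, 12.9 and 7.50 CPM in HIB, against 0.903, 0.926 and 1.04 CPM in PRE. The lowest HIB sum lay far above the highest PRE sum, and the 3 PRE sums were close together. They rested on 548 to 921 counts in HIB and 61 to 69 counts in PRE. The log2 fold change was 3.50 ± 0.72 (SE, edgeR adjusted p = 0.0445). In SOL it had 9.95, 6.04 and 4.13 CPM in HIB, against 0.970, 1.09 and 1.46 CPM in PRE, a log2 fold change of 2.51 ± 0.82 that did not pass (edgeR adjusted p = 0.229). In EDL it had 14.3, 17.6 and 10.6 CPM in HIB, against 0.843, 0.775 and 0.587 CPM in PRE, a rise of 4.26 ± 0.69 (edgeR adjusted p = 0.0199). Neither muscle's HIB libraries overlapped its PRE libraries. Without pairing, the difference between the muscles, SOL minus EDL, was -1.76 ± 1.07 and did not pass (edgeR adjusted p = 1). Outside HIB and PRE its sums were low, at 0.286, 0.599 and 1.24 CPM in SA, 1.85, 0.887 and 3.61 CPM in IBA, and 0.470, 0.294 and 2.16 CPM in POST. No sum of these 3 states reached the lowest HIB sum. The call was lost without any single HIB or PRE sum, without SA replicate 2 or 3, without IBA replicate 1 and with library totals alone, where the log2 fold change ran from 3.36 to 3.71.

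Identifier 101956544 had the second largest rise of the 38, with a wide spread in HIB. Its sums stood at 35.9, 141 and 52.5 CPM in HIB, against 9.38, 8.31 and 18.3 CPM in PRE. HIB replicate 2 was far above the other HIB sums, and PRE replicate 3 was the highest of PRE. The log2 fold change was 2.67 ± 0.48 (SE, edgeR adjusted p = 0.0326), and without HIB replicate 2 it was 1.88 and did not pass (edgeR adjusted p = 0.0687). In SOL the log2 fold change of 2.59 ± 0.49 did not pass (edgeR adjusted p = 0.114), and in EDL it passed narrowly at 2.80 ± 0.60 (edgeR adjusted p = 0.0483). Its SOL libraries had 37.4, 142 and 85.4 CPM in HIB, against 13.1, 8.78 and 22.2 CPM in PRE. Its EDL libraries had 34.1, 138 and 22.0 CPM in HIB, against 6.07, 7.73 and 14.2 CPM in PRE. Replicate 2 was the highest HIB library in both muscles, and the groups overlapped in neither. The call was lost without each of the 6 HIB and PRE sums in turn, and also with the 6 sums alone (edgeR adjusted p = 0.0523), with library totals alone (edgeR adjusted p = 0.0514) and with the replicate number as a block (edgeR adjusted p = 0.0539). In the other states its sums were 18.6, 11.7 and 17.6 CPM in SA, 32.2, 26.4 and 40.4 CPM in IBA, and 46.3, 27.1 and 63.4 CPM in POST. The SA sums overlapped those of PRE, and the IBA and POST sums all lay above PRE.

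Identifier 101970431 had the largest fall of the 51. Its sums stood at 0.886, 1.75 and 0.383 CPM in HIB, against 12.6, 23.7 and 41.5 CPM in PRE. The HIB sums rested on 28 to 125 counts and the PRE sums on 854 to 2765, and the groups were far apart although each spread over a wide range. The log2 fold change was -4.69 ± 0.68 (SE, edgeR adjusted p = 0.0168). In SOL it fell by 5.41 ± 0.80 on the log2 scale (edgeR adjusted p = 0.0307) and in EDL it fell by 4.05 ± 0.57 (edgeR adjusted p = 0.0146), so it was called in both muscles. Its SOL libraries had 0.961, 1.10 and 0.256 CPM in HIB, against 13.4, 31.5 and 52.9 CPM in PRE. Its EDL libraries had 0.808, 2.19 and 0.498 CPM in HIB, against 11.9, 17.2 and 29.5 CPM in PRE. In PRE the order of the replicates was the same in both muscles, and in SOL and EDL the lowest HIB library was replicate 3. The call was lost without HIB replicate 1 or 3 or PRE replicate 2 (edgeR adjusted p = 0.0746, 0.0528 and 0.0626). Without HIB replicate 2 the log2 fold change was -5.36 and without PRE replicate 3 it was -4.18. In the other states it was abundant again, with sums of 61.3, 14.6 and 22.9 CPM in SA, 20.7, 8.13 and 22.0 CPM in IBA, and 13.7, 17.5 and 12.5 CPM in POST. All 12 sums outside HIB lay above all 3 HIB sums. In IBA against HIB, which shares the HIB sums, its log2 fold change was 4.07 ± 0.67 without passing (edgeR adjusted p = 0.117).

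Identifier 101964856 had the second largest fall of the 51. Its sums stood at 10.3, 13.1 and 7.26 CPM in HIB, against 140, 86.8 and 144 CPM in PRE. The highest HIB sum was far below the lowest PRE sum, with 531 to 936 counts in HIB and 6000 to 9589 in PRE. The log2 fold change was -3.60 ± 0.71 (SE, edgeR adjusted p = 0.0371). It was -3.64 ± 0.83 in SOL, without passing (edgeR adjusted p = 0.131), and in EDL it fell by 3.56 ± 0.69 (edgeR adjusted p = 0.0400). Its SOL libraries had 8.30, 12.6 and 5.07 CPM in HIB, against 72.1, 83.9 and 167 CPM in PRE. Its EDL libraries had 12.1, 13.3 and 9.25 CPM in HIB, against 202, 86.8 and 119 CPM in PRE. Both muscles thus showed the same separation, and replicate 3 was the lowest HIB library in each. The call was lost without each of the 6 HIB and PRE sums, without SA replicate 3, with library totals alone and with the replicate number as a block. In SA the sums were 257, 102 and 453 CPM, and in POST 52.7, 114 and 39.7 CPM. In IBA they were 128, 13.8 and 80.6 CPM, and replicate 2 lay near the HIB sums in SOL (6.25 CPM) while its EDL library had 22.0 CPM. The 3 IBA sums thus spread from near the HIB level to near the PRE level.

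**Figure D4:**
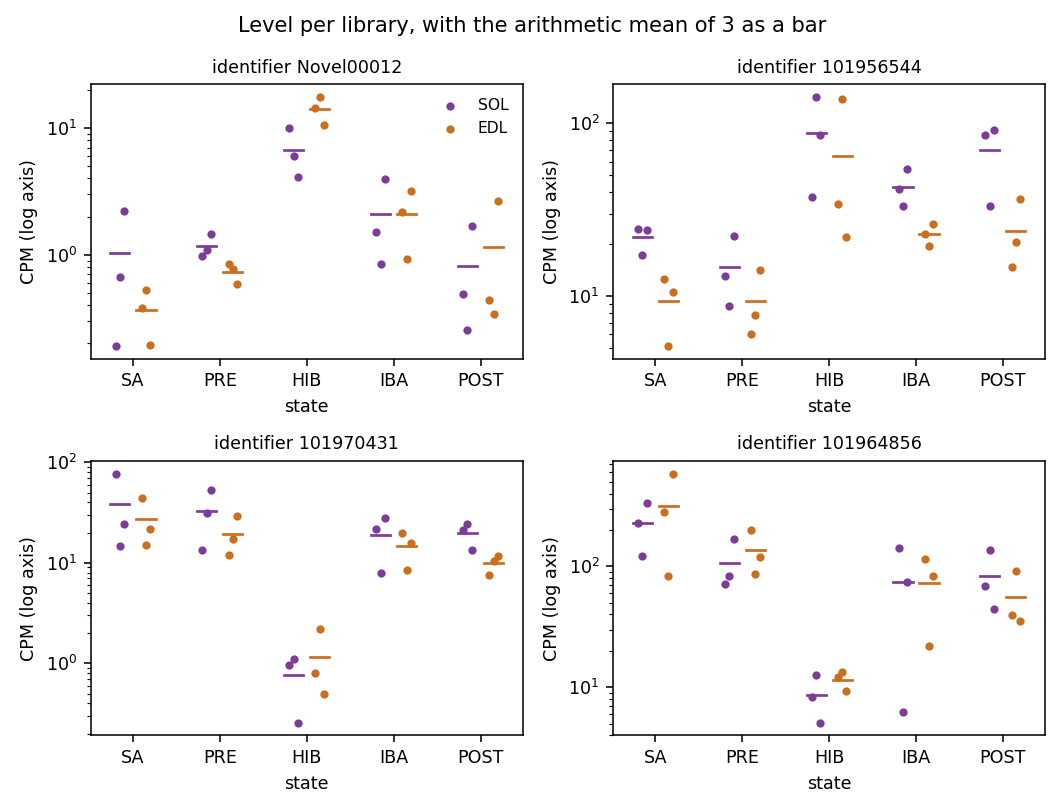
CPM on a log axis in every SOL and EDL library of the 5 states for Novel00012, 101956544, 101970431 and 101964856, with the arithmetic mean of 3 libraries as a bar. HIB libraries are the highest for Novel00012 and the lowest for 101970431 in both muscles, and 1 IBA SOL library of 101964856 (6.25 CPM) lies among the HIB libraries.

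None of the 4 showed a difference between the muscles that passed in the unpaired test, with an edgeR adjusted p of 1 for each. Every identifier had that value in the unpaired test, so it says nothing particular to the 4. With the muscles paired, edgeR called 0 of all identifiers. In IBA against SA, where HIB and PRE libraries enter only the shared estimate of spread, the log2 fold changes were 1.57 ± 0.68 for Novel00012, 1.05 ± 0.46 for 101956544, -0.96 ± 0.58 for 101970431 and -1.87 ± 0.66 for 101964856, and none passed (edgeR adjusted p = 0.264, 0.266, 0.420 and 0.179). In POST against SA they were 0.48 ± 0.68, 1.51 ± 0.46, -1.18 ± 0.58 and -1.98 ± 0.66 in the same order, and none passed (edgeR adjusted p = 0.676, 0.0515, 0.193 and 0.0693).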

How the data were processed

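Muscle RNA was sequenced in 30 libraries. The labels' protocols name AG RNAex for RNA extraction and an NEBNext Ultra RNA kit for the libraries. The authors' deposited table holds raw counts of 27394 identifiers. HISAT2 2.0.4 and HTSeq 0.9.1 are named per the submitters' processing notes, while build, annotation and strand setting are given in none of the sources used. Genes with near-identical copies, and overlapping or antisense genes, therefore have uncertain counts. Of 447 symbols in 34 lists, 0 matched an identifier, so the lists were not run. Members, lists and tests were chosen with earlier results of these data known.

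SOL and EDL counts of the same state and number were added. The 15 sums of 5 states were fitted together in R 4.3.3 with edgeR 4.0.16, so that they share the spread, after filterByExpr (minimum count 10) and TMM, with the quasi-likelihood F test and Benjamini-Hochberg adjustment at 0.05. Of the 27394 identifiers 10088 were not tested, and the filter lay between a third-highest CPM of 0.139 (outside) and 0.141 (inside). Each muscle was fitted on its 15 libraries, and the difference between muscles on all 30. A standard error is the log2 fold change divided by the square root of F.

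Named identifiers met the rule given with them, and as no symbols were given the first 2 rises and the first 2 falls were named. The labels do not say which animals the numbers stand for. Deviations from the group mean of the SOL and the EDL library of a number correlated at 0.16 to 0.68 in all 15 pairs, so the numbers were read as pairing the muscles. P-values refer to the spread among these samples, which may be technical. Replicate libraries of a group differed by 51.6 to 138 times the chi-square expected from counting, so none was taken as a duplicate. At this depth counting error is small beside the spread, except at low counts.

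Alternatives were DESeq2 1.42.0 with its Wald test, its size factors, no filter, only the 6 sums, a replicate block, equal weight of both muscles, limma 3.58.1 voom on single libraries with a random block, and leaving out single sums. The edgeR, DESeq2 and interaction tests were tried on simulated counts.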

Additional observations from a re-analysis of the deposited data

How the results depend on the processing

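All 121 called identifiers kept their direction in every alternative run for the sums. The absence of overlap all but fixed this for left-out sums, and it favoured it in the other alternatives, which rest on the same reads. The number called moved widely, and the cause was not tested. It was 130 with DESeq2's size factors (121 shared with the 121), 111 without a filter (100 shared), 106 with equal weight of both muscles (106 shared), 411 with only the 6 sums (97 shared), 1219 with DESeq2's Wald test (121 shared) and 581 with voom on single libraries (102 shared, 38.9% higher). In all 6 of these fits, 69 of the 121 were called. Library totals alone, chosen after seeing the data, gave 18 (18 shared). Leaving out single sums gave 1 to 588 calls, those of SA, IBA and POST replicates 2 and 3 being chosen after seeing the data. Without each HIB and PRE sum in turn, 22 of the 121 were called at least once and 1 every time.

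With the replicate number as a block across states, 38 were called in the sums (36 shared), 1 in SOL and 41 in EDL. Deviations of the HIB and PRE sums of the same number correlated at 0.12, -0.04 and -0.17, and 1 of 3 HIB sums matched its own number best. The number was therefore not read as pairing these states, although 3 sums per state cannot exclude it. The test of a difference between muscles, with same-numbered libraries as a block, gave 0, as without, and DESeq2 gave 1. With only the 6 libraries 95 were called in SOL and 117 in EDL, and with DESeq2's Wald test 369 in SOL and 1072 in EDL. Leaving out single libraries gave 0 to 12 in SOL, with 1465 to 2692 at an unadjusted p under 0.05, and 2 to 111 in EDL. The 4 named identifiers kept their direction in all 23 alternatives each, and the call in 13 for Novel00012, 14 for 101956544, 20 for 101970431 and 14 for 101964856. Their choice by large folds without overlap favoured the kept direction. Leaving out a sum of SA, IBA or POST left their folds almost unchanged. Depth limits identifiers of low counts, such as the 7 with at most 3 counts in each PRE sum. The alternatives for gene lists were not run.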

Other observations

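Novel00360, singled out after its values were seen because its fitted fall was the largest of all without passing (edgeR adjusted p = 0.225), was present in some numbers and absent in others. It had 0 counts in all 6 HIB libraries. In PRE it had 491 and 582 counts in SOL and 486 and 340 counts in EDL for replicates 2 and 3, against 0 counts in both muscles for replicate 1. In the other states it had 1078 counts in SOL and 406 in EDL for SA replicate 2, and 499 and 320 for POST replicate 3. The remaining libraries, 22 of the 30 with those of HIB and PRE included, had 0 counts. SOL and EDL thus showed the same presence or absence in all 15 numbers, and it varied within PRE, SA and POST. A search for identifiers with at least 50 counts in both muscles of at least 3 numbers and 0 counts in both muscles of every other number found 1, this one. What its presence follows was not tested.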
